A study of Mus musculus with 8 samples.

Results

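The genes described here are 8 genes of the pigment cell, the melanocyte, measured on arrays of the mouse airway: Mlana, Dct, Tyrp1, Tyr, Pmel, Mitf, Oca2 and Slc45a2. They are represented by 14 probe sets, which are all the probe sets annotated with 1 of these symbols and no other, among 45037 non-control probe sets on the array. Mlana was chosen by its measured values, namely a higher signal in old than in young tracheas, and the other 7 genes were added for their role in the melanocyte. The values of Mlana in young and old mice are therefore a description and carry no test, and the question is whether the other pigment genes moved with it and whether its signal stood above the background of the array.

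RNA came from the distal trachea and carina, the region where the trachea divides, of female C57Bl/6 mice. The old group was 4 mice of 14 months, numbered 1, 2, 5 and 6, and the young group was 4 mice of 2 months, numbered 3, 4, 7 and 8. Each mouse was hybridised to 1 Affymetrix Mouse430 array, and the labels name no transgene or treatment. The deposited signals are in arbitrary units on a linear scale, with a mean of 500.002 on every array when the top and bottom 2% of probe sets are left out, and a median between 149.6 and 160.5. A background level was taken from silent genes (defined with the values of Mlana). All 8 markers of airway epithelium, among them Foxj1, Scgb1a1 and Krt5, were above it on every array on their brightest probe set. So were the 4 of tracheal cartilage. The dimmer probe sets of Trp63, another of the epithelial markers, were below it.

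Melanocytes make melanin in melanosomes, organelles related to lysosomes, and in mice they reside mainly in hair follicles and the skin of sparsely haired sites, with smaller populations in the inner ear, the eye and some internal organs such as the heart. The transcription factor MITF is needed for the lineage and drives many of its genes. Tyrosinase (Tyr), the rate-limiting enzyme of melanin synthesis, works with dopachrome tautomerase (Dct) and tyrosinase-related protein 1 (Tyrp1). Pmel forms the fibrils on which melanin is laid down, Mlana (melan-A) is a melanosomal membrane protein that assists in the processing of Pmel, and Oca2 and Slc45a2 are melanosomal transport proteins that set its ionic conditions. C57Bl/6 mice have black coats, and their melanocytes are able to make melanin.

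Some of these genes, the pigment enzymes, carry a short sequence near their start, which is shown here because it is the textbook link between MITF and the pigment enzymes. MITF binds DNA at CATGTG, and in pigment genes often at the longer TCATGTG. RefSeq promoter windows of the GRCm38.p6 assembly, each 300 bases long with 250 before and 50 after a transcript start, were found for 5 of the 8 genes, in 7 windows in all. Mlana, Pmel and Slc45a2 had no window. CATGTG, searched on both strands, was in 4 of the 7 windows, against 14.2% of all 32851 windows, and TCATGTG, which contains it, was in 3 of the 7, against 3.77% of all windows. The matches are those of Tyr, Tyrp1 and Dct, given below as 30 bases 5′ to 3′ on the strand of the gene, with the match to TCATGTG or its reverse complement in capitals.
Tyr, chr7:87493516-87493545, minus strand: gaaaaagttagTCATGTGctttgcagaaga
Tyrp1, chr4:80834155-80834184, plus strand: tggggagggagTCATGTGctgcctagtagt
Dct, chr14:118052379-118052408, minus strand: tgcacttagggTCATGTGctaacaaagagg
Dct, chr14:118052460-118052489, minus strand: cttggctgggaCACATGAgcccaataaaga
Counted from the transcript start, the match begins at -22 in Tyr, at -47 in Tyrp1 and at -151 and -232 in Dct. Oca2 had CATGTG without the extra base, at -186, and the 3 windows of Mitf itself had neither. A match is a stretch of letters and not a measured binding site.

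Mlana had a higher signal in every old mouse than in any young mouse. Its single probe set, 1430635_at, gave signals of 139, 135, 182 and 186 in old mice 1, 2, 5 and 6 and of 34.4, 19.99, 54.4 and 61.0 in young mice 3, 4, 7 and 8. The mean was 160 ± 27.5 in old and 42.5 ± 18.8 in young mice (mean ± SD, n = 4 each), a log2 difference of 2.03 (standard error, SE, 0.35) or a ratio of 4.08 between the geometric means. Among all 45037 probe sets, 109 had a larger log2 difference. The young mice differed more among themselves than the old mice, with an SD of log2 signal of 0.73 against 0.25. Mice with numbers 5 to 8 had higher Mlana signals than those with numbers 1 to 4 of the same age, by 0.43 on the log2 scale in old and 1.13 in young mice. Within mice 1 to 4 the old minus young difference was 2.38 and within mice 5 to 8 it was 1.68. The labels do not say what the numbers stand for, and the part of any such grouping in the signal was not tested. In whole tissue, more cells of a type and more RNA per cell cannot be told apart.

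**Figure D1:**
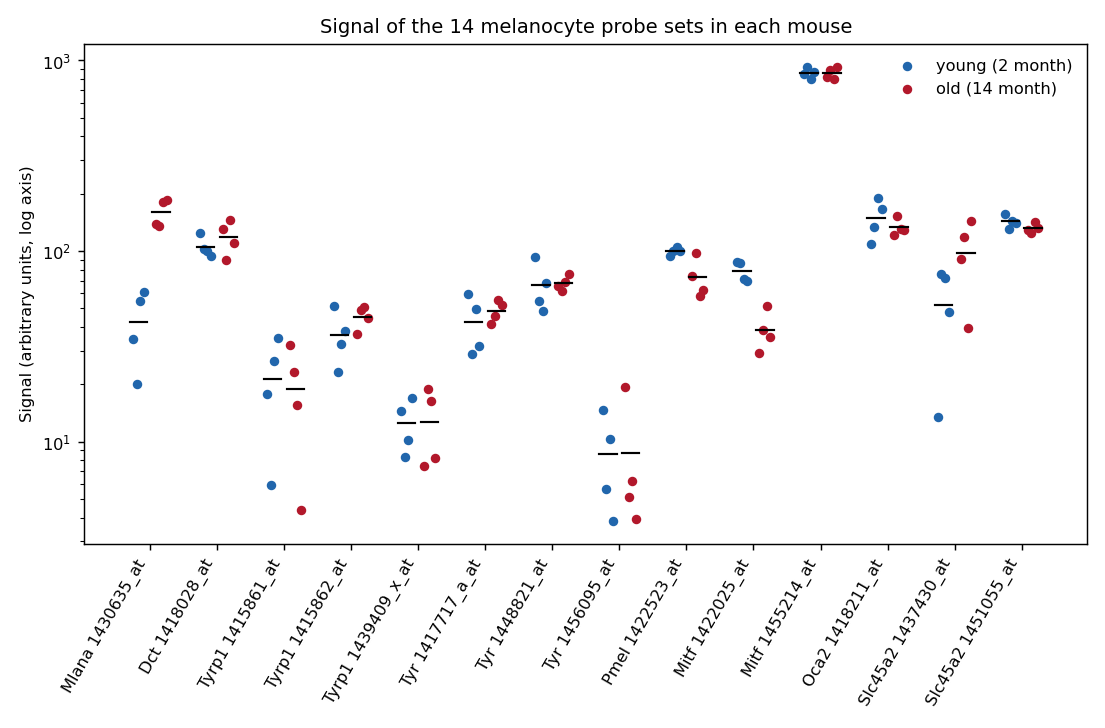
Signals (arbitrary units, log axis) of the 14 melanocyte probe sets, where blue stands for 4 young (2 month) and red for 4 old (14 month) mice. Each point is 1 mouse and each black line the mean of 4 mice. The ages do not overlap for Mlana, which is higher in old mice, and for Mitf 1422025_at, which is lower.

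The table gives no detection call, so the level of background was taken from 44 probe sets of 30 genes that are restricted to germ cells, the eye, the pancreas, the kidney and other organs, referred to as silent genes. Their median signal lay between 17.1 and 29.8 on the 8 arrays and their 95th percentile between 172 and 252. In young mice the signal of Mlana was near the middle of these probe sets, of which 13 to 21 were at least as bright as Mlana on the same array. In old mice 3 to 5 of the 44 were. Mlana was above the median of the silent genes on 8 of 8 arrays and above their 95th percentile on none. In old mice it was above their 90th percentile in 4 of 4, although by less than 1 unit in mice 1 and 2, where that percentile was 138.2 and 134.3. The 95th percentile rests on 3 bright probe sets, those of Uox (mean signal 736), Aqp2 (322) and Ins2 (214), and without them Mlana was above it in at least 3 of 4 old mice and not in young mice, a setting chosen after seeing the data. Against 44 probe sets of olfactory receptor genes, a second set expected to be silent, Mlana was above the 95th percentile in 4 of 4 old and 0 of 4 young mice. Among all probe sets of its array Mlana ranked at a percentile of 46.7 to 54.5 in old and 10.4 to 27.5 in young mice. Probe sets differ in how strongly they bind their target, so these ranks place the signal roughly and do not measure an amount of RNA.

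**Figure D2:**
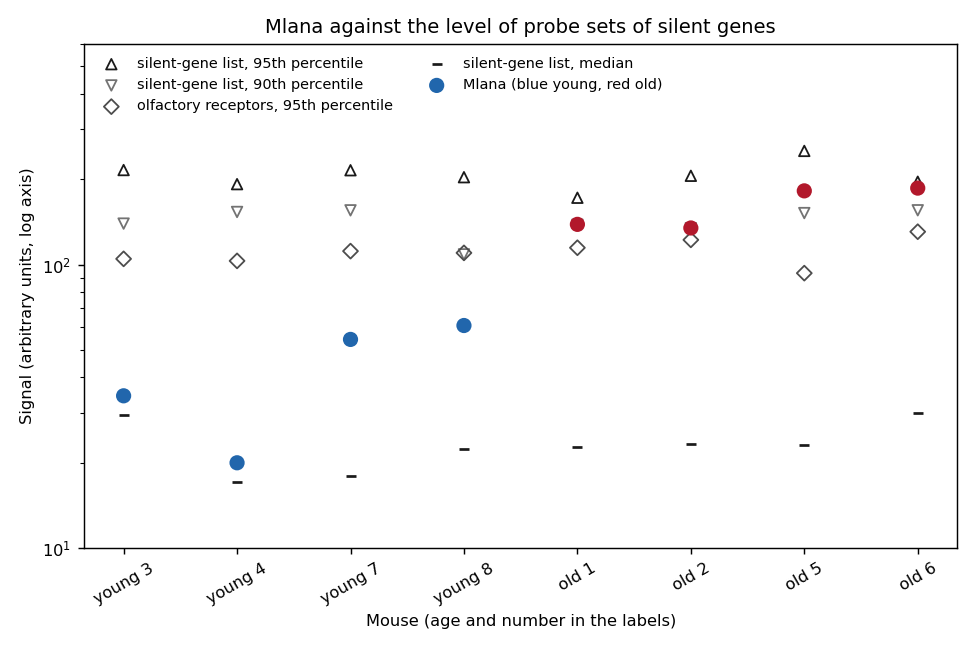
Signal of Mlana in each mouse (filled circles, blue for young and red for old) beside the level of background on the same array (arbitrary units, log axis). Open symbols and dashes give the median, 90th and 95th percentile of 44 probe sets of silent genes and the 95th percentile of 44 olfactory receptor probe sets. In old mice Mlana lies above the olfactory receptor level and below the 95th percentile of the silent genes, and in young mice below both.

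Of the 14 probe sets, 1 exceeded the 95th percentile of the silent genes in at least 3 of the 4 old mice, and the same probe set did so in young mice. It was Mitf 1455214_at. Among all probe sets 42.4% did so in old and 42.4% in young mice. With the olfactory receptor level in its place and the same rule, 4 probe sets passed in old mice (Mlana, Mitf 1455214_at, Oca2 and Slc45a2 1451055_at) and 3 in young mice, the same without Mlana. The enzymes Tyr, Tyrp1 and Dct and the fibril protein Pmel passed this rule for neither level at either age.

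No rise with Mlana was detected in the other melanocyte genes, although the intervals of some dim probe sets were wide. Of their 13 probe sets, 0 were higher and 0 lower with age when limma's adjusted p was held under 0.05, against 0.0533% of all probe sets higher and 0.0178% lower. Before adjustment, p was under 0.05 for 2 of them, Pmel and Mitf 1422025_at, both lower in old mice, where 5.76% of all probe sets passed with a higher and 5.41% with a lower signal. At the thresholds of the study's methods, more than 2-fold and p under 0.05 before adjustment, 0 of the 13 were higher and 1 was lower, against 1.19% and 0.802% of all probe sets. Their log2 differences ran from -1.05 to 1.03 with a median of -0.039, where all probe sets had a median of -0.0062. In 5 of the 13 the value was positive and in 8 negative. The ages did not overlap in 0 of the 13 with old mice above and in 1 with old mice below, against 4.05% and 3.75% of all probe sets.

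**Figure D3:**
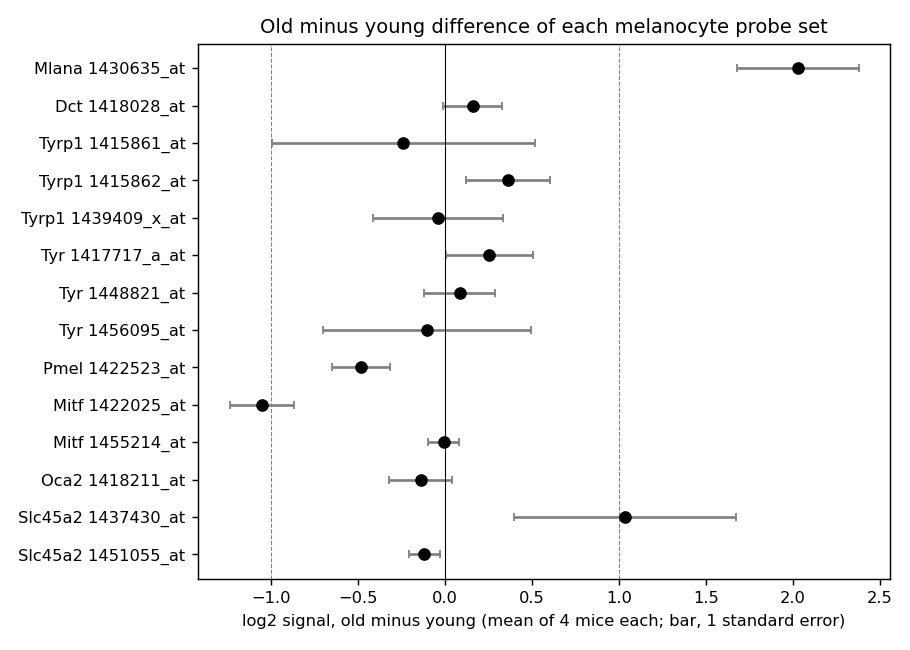
Difference in log2 signal between old and young mice for each of the 14 probe sets, as the mean of 4 mice minus the mean of 4 mice. Bars are 1 SE from limma and dashed lines mark a 2-fold difference. Mlana lies at 2.03, Mitf 1422025_at at -1.05 and Slc45a2 1437430_at at 1.03, and the other 11 lie between -0.48 and 0.36.

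The enzymes of melanin synthesis did not differ between the ages beyond the spread between mice. Dct was at 130, 89.6, 145 and 110 in old mice 1, 2, 5 and 6 and at 125, 103, 99.9 and 94.1 in young mice 3, 4, 7 and 8. The ages overlapped, and the log2 difference was 0.16 with a 95% interval from -0.24 to 0.56 (SE 0.17, adjusted p = 0.780 from limma). Tyr has 3 probe sets, which differed in brightness and none of which separated the ages. The brightest, 1448821_at, was at 65.9, 62.0, 69.0 and 75.8 in old mice and at 93.1, 54.8, 48.7 and 68.0 in young mice. Its log2 difference was 0.085 with a 95% interval from -0.39 to 0.56 (SE 0.20, adjusted p = 0.913 from limma). Tyr 1417717_a_at was at 48.7 ± 6.23 in old and 42.4 ± 14.7 in young mice (mean ± SD, n = 4 each). Tyr 1456095_at ranged from 3.83 to 19.5 over the 8 mice, below the median of the silent genes on every array.

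Tyrp1, which acts on an intermediate of melanin synthesis and stabilises tyrosinase, was dim on all 3 of its probe sets. The brightest, 1415862_at, was at 36.9, 48.8, 50.7 and 44.8 in old mice and at 51.7, 23.3, 32.7 and 38.1 in young mice. The highest value of all belonged to young mouse 3, and the log2 difference was 0.36 with a 95% interval from -0.20 to 0.92 (SE 0.24, adjusted p = 0.628 from limma). Tyrp1 1415861_at ranged from 4.38 to 35.1, with the widest interval of the 13, from -1.99 to 1.52 on the log2 scale, which does not exclude a difference as large as 2-fold either way. Tyrp1 1439409_x_at, whose identifier marks probes that can match other transcripts, ranged from 7.44 to 18.9 and was below the median of the silent genes on every array.

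Pmel, the fibril protein whose processing involves Mlana, had lower signals in 3 of the 4 old mice than in any young mouse. It was at 73.6, 97.8, 58.0 and 62.8 in old mice and at 94.2, 100, 105 and 100 in young mice. Old mouse 2 lay inside the range of the young mice. The log2 difference was -0.48 (SE 0.17, unadjusted p = 0.0207 from limma across all probe sets), and it did not pass the adjusted threshold (adjusted p = 0.350 from limma). Pmel was thus opposite in sign to Mlana in these mice.

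Mitf, the transcription factor of the lineage, which is also used in mast cells, osteoclasts and other cells, had 2 probe sets that gave different results. The brighter, 1455214_at, was at 819, 886, 801 and 927 in old mice and at 848, 924, 803 and 873 in young mice. It varied little from mouse to mouse, and the log2 difference was -0.0071 with a 95% interval from -0.21 to 0.20 (SE 0.089, adjusted p = 0.986 from limma). The dimmer, 1422025_at, was at 29.2, 38.4, 51.6 and 35.3 in old mice and at 87.9, 86.9, 71.0 and 69.8 in young mice. Every old mouse lay below every young mouse, with a mean of 38.6 ± 9.47 in old and 78.9 ± 9.85 in young mice (mean ± SD, n = 4 each). The log2 difference was -1.05 (SE 0.19, unadjusted p = 0.000564 from limma across all probe sets), and the adjusted p was 0.120. It was the probe set that passed the thresholds of the methods, with a ratio of young over old of 2.08, and it no longer passed the fold threshold without old mouse 1 (log2 difference -0.93) or without young mouse 3 (-0.999). At signals under 88 it lay well inside the range of the silent genes, and with all signals below 64 raised to 64 its log2 difference was -0.29. Which transcripts of Mitf each probe set measures was not examined.

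The transport proteins did not differ beyond the spread between mice either. Oca2, with 1 probe set, was at 122, 152, 130 and 129 in old mice and at 109, 134, 189 and 167 in young mice, where both ends of the range fell in young mice. Its log2 difference was -0.14 with a 95% interval from -0.56 to 0.28 (SE 0.18, adjusted p = 0.826 from limma). Slc45a2 had 2 probe sets with opposite signs. The brighter, 1451055_at, was at 129, 124, 142 and 132 in old mice and at 156, 131, 145 and 140 in young mice, a log2 difference of -0.12 with a 95% interval from -0.33 to 0.092 (SE 0.090, adjusted p = 0.677 from limma). The other, 1437430_at, was at 91.2, 119, 39.5 and 144 in old mice and at 13.4, 75.5, 72.3 and 47.7 in young mice. Its log2 difference of 1.03 was the largest among the 13, with a 95% interval from -0.45 to 2.52 that includes the value of Mlana (SE 0.64, adjusted p = 0.600 from limma). It was 0.47 without young mouse 3 and 1.42 without old mouse 5. Old mouse 5 lay below 3 of the 4 young mice, and young mouse 3 was the lowest by far.

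Genes that act around the melanocyte were described through 5 lists of pigment genes, 51 genes in all, of which 48 were measured by 106 probe sets. By limma's adjusted p, 0 of the 106 passed 0.05, and before adjustment 4 passed with a higher and 5 with a lower signal, no larger a share than the 5.76% and 5.41% of all probe sets. The median log2 difference was 0.017. At the thresholds of the methods 0 were higher and 1 was lower, against 1.19% and 0.802% of all probe sets. The 1 that was lower was Hps1 1448408_at, of a complex that builds lysosome-related organelles, with signals of 11.9 to 24.4 in old and 22.0 to 41.6 in young mice (log2 difference -1.14, adjusted p = 0.226 from limma), within the range of the silent genes.

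**Figure D4:**
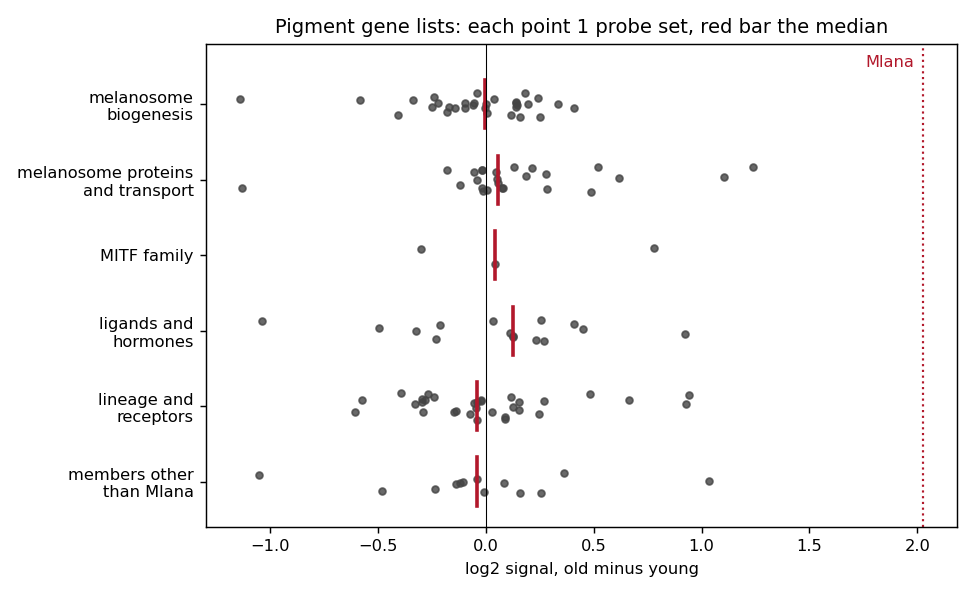
Difference in log2 signal, old minus young, of every probe set of the 7 melanocyte genes other than Mlana and of 5 lists of pigment genes. Each point is 1 probe set (13, 32, 15, 3, 25 and 31 from the bottom up), each red bar the median of its list, and the dotted line marks Mlana at 2.03. No probe set of these lists reaches the value of Mlana, and the medians lie between -0.042 and 0.12.

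Of the 10 genes of the lineage and its receptors, all measured, 0 of 32 probe sets passed the adjusted threshold, and the median log2 difference was -0.042. Ednrb, the endothelin receptor of melanocyte precursors and also a gene of other cell types, was lower in every old mouse than in any young mouse on all 3 of its probe sets, where 3.75% of all probe sets were lower without overlap. The brightest, 1437347_at, was at 707, 774, 671 and 738 in old and at 1004, 1134, 811 and 877 in young mice, a log2 difference of -0.39 (SE 0.12, adjusted p = 0.309 from limma). The other 2 were at -0.29 and -0.14. Probe sets of 1 gene share their RNA and do not count as separate evidence. Lef1, a transcription factor of Wnt signaling, had a log2 difference of 0.67 on its brightest probe set (SE 0.21, adjusted p = 0.315 from limma) and of 0.16 on the other. Sox10, which acts upstream of Mitf and is also made by Schwann cells, was at 89.9 to 195 in old and 143 to 249 in young mice on its brightest probe set, and its 3 probe sets were between -0.57 and -0.27. Kit, the receptor for stem cell factor in melanocytes and mast cells, was at 434 ± 27.5 in old and 482 ± 49.0 in young mice (mean ± SD, n = 4 each) on its brightest probe set, a log2 difference of -0.15 (SE 0.11, adjusted p = 0.658 from limma). Mc1r, the melanocortin receptor that controls the type of melanin made, had 2 probe sets. On 1435393_at every old mouse (142 to 175) lay above every young mouse (21.1 to 127), as in 4.05% of all probe sets. Young mice 3, 7 and 8 were at 127, 124 and 125, and young mouse 4 alone was at 21.1. The log2 difference of 0.94 (SE 0.58) leans on that 1 dim value and did not pass (adjusted p = 0.599 from limma). The other probe set, 1422069_at, was at 0.93 (SE 0.88), with signals of 2.22 to 38.1 and overlap between the ages. Mc1r was named after its values were seen.

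Of 7 ligands and hormones, 6 were measured by 15 probe sets, of which 0 passed at an adjusted or unadjusted p under 0.05, with a median of 0.12. Kitl, the ligand of Kit, was at 4245 ± 112 in old and 4174 ± 493 in young mice (mean ± SD, n = 4 each) on its brightest probe set, and its 4 probe sets were between 0.032 and 0.41. Hgf, a growth factor for many cells including melanocytes, was at 0.45 on its brightest probe set (SE 0.21, adjusted p = 0.490 from limma) and at 0.11 and -0.49 on the others. The 3 factors related to MITF were Tfeb, at -0.30 (SE 0.13, adjusted p = 0.452 from limma), Tfec, at 0.78 with a SE of 0.66, and Tfe3, at 0.044.

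Of 13 genes of melanosome proteins and transport, 12 were measured by 25 probe sets, with 0 past the adjusted threshold and a median of 0.055. In 2 of the 25 probe sets the old mice were all above the young mice, against 4.05% of all probe sets. Rab32, a GTPase that delivers enzymes to melanosomes and other lysosome-related organelles, was at 642, 630, 583 and 618 in old and at 386, 468, 474 and 443 in young mice, a log2 difference of 0.48 (SE 0.095, adjusted p = 0.144 from limma). Gpnmb, a relative of Pmel that is made by melanocytes and by macrophages, was at 851, 772, 716 and 803 in old and at 447, 502, 597 and 668 in young mice on 1448303_at, a log2 difference of 0.52 (SE 0.14, adjusted p = 0.254 from limma). Its other probe set was at 0.19. Slc7a11, also of this list, had a log2 difference of 1.24 on 1420413_at (SE 0.66, adjusted p = 0.542 from limma). This was the highest value in the 5 lists. On 1443536_at it was at 1.11 (SE 0.56, adjusted p = 0.520 from limma). Both probe sets were dim, with signals of 8.55 to 104, and overlapped between the ages. Slc7a11 was named after its values were seen. Of the 25 probe sets, 16 were positive and 9 negative. The 8 macrophage markers had 12 of 12 probe sets positive and a median of 0.25. Of the 12, 7 were higher at an unadjusted p under 0.05, against 5.76% of all probe sets, and 0 passed the adjusted threshold. Probe sets of C1qb, at 0.69, 0.46 and 0.30, were among the 7. Lyz2, the brightest marker, did not differ, at 0.0084 (SE 0.089, adjusted p = 0.982 from limma). The summed signal of the 8 markers, to which Lyz2 gave the most, was 33498 to 39581 in old and 31395 to 34219 in young mice, with overlap. All 8 were above the silent-gene level on every array. The part of macrophages in the signals of Rab32 and Gpnmb was not tested.

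Of 18 genes of melanosome biogenesis, which serve lysosome-related organelles in many cells, 17 were measured by 31 probe sets, with 0 past the adjusted threshold and a median of -0.0058. The other 3 probe sets of Hps1, the brightest among them, were at 0.035, 0.25 and -0.097. Besides Hps1, the member with the smallest p was Hps4, at -0.34 (SE 0.12, adjusted p = 0.365 from limma), with 384 to 511 in old and 535 to 637 in young mice.

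Markers of other cells that use the same genes were read beside these values. The 8 mast cell markers had 11 probe sets, of which 0 passed at an unadjusted p under 0.05, with a median of 0.054 and summed signals of 4980 to 5946 in old and 5018 to 6946 in young mice. The 7 Schwann cell markers analysed had 15 of 19 probe sets negative and a median of -0.27. Of the 19, 6 were lower at an unadjusted p under 0.05, against 5.41% of all probe sets, and 0 passed the adjusted threshold. Their summed signal was 8741 to 9384 in old and 9319 to 10977 in young mice. Of 11 measured markers of hair follicle and epidermis, 8 were above the silent-gene level on no array, among them the hair keratins Krt25, Krt27, Krt71, Krt33a and Krt35. Of the 13 probe sets of these 11 markers 1 passed the thresholds of the methods, with a higher signal, against 1.19% of all probe sets. It was that of Krt35, at 40.2 to 56.0 in old and 7.38 to 38.0 in young mice. The ages did not overlap, a separation seen in 4.05% of all probe sets (log2 difference 1.85, SE 0.48, adjusted p = 0.243 from limma). Krt35 is named here after its values were seen, and the other 4 hair keratins were between -0.80 and 0.66. The summed signal of the 11 markers was 1094 to 1197 in old and 1112 to 1214 in young mice. The summed signal of the 8 melanocyte genes was 1515 to 1668 in old and 1477 to 1541 in young mice, and most of it was Mitf 1455214_at. What part these cell types had in any melanocyte probe set was not tested.

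The genes whose pattern over the 8 mice was most like that of Mlana were not pigment genes. Likeness was the root mean square difference between the log2 signals of a gene and of Mlana, each less its own mean over the 8 mice, over 18192 other genes with the brightest probe set of each. The nearest were Il21, a cytokine of T cells (0.42), Cplx4, a complexin of synapses (0.45), S100a9, a subunit of calprotectin in neutrophils (0.45), and the heat shock proteins Hspa1b (0.46) and Hspa1a (0.46). Il21 and Cplx4 had signals of 7.44 to 66.3 and 10.4 to 75.4, so their patterns rest on dim values. The melanocyte gene nearest to Mlana was Tyrp1, which stood at rank 832 with a difference of 0.94, and the others stood between rank 4347 (Dct) and rank 16181 (Pmel). Slc45a2 was ranked by 1451055_at, its brightest probe set, so 1437430_at, with a log2 difference of 1.03 between the ages, was not ranked. With 8 mice and a difference by age in Mlana, any gene with a like difference by age comes out as near.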

How the data were processed

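Arrays of 8 mice, 1 mouse each, were analysed. The authors deposited signal intensities for 45101 probe sets on a linear scale; their methods name robust multichip analysis in Partek, whose values are usually in log2, so how these values were made is not settled. Signals were taken to log2 without further normalization, floor or filter, and 64 control probe sets were left out. The age difference of each probe set was fitted in limma 3.58.1 under R 4.3.3 (linear model with empirical Bayes variance, two-sided), with Benjamini-Hochberg adjustment over 45037 probe sets. The second factor of the authors' two-way analysis of variance is not named, so age was the sole factor. Gene symbols were those of the platform annotation, which gives 1 symbol to 34945 probe sets. No probe set listed a melanocyte gene among several symbols.

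The members, the gene lists and the silent genes were chosen with earlier results of these data known. Genes named outside the members were those with the smallest 2 p-values in each list, Sox10, Kit, Ednrb, Gpnmb and Kitl, and the 5 most like Mlana. Beyond this rule, Tfe3 completes its list of 3, and marker genes of other cells are named as examples of their lists. Mc1r, Slc7a11 and Krt35 were named after their values were seen. The limma fit, and no other step, was run on simulated log2 signals with independent normal errors. Its outcome is not given here, so it does not say how large a rise in a dim probe set could be missed. The labels do not pair mice across ages, and their number, 4 per age, limits the precision. Alternatives left out each mouse in turn, or changed the normalization, floor, variance model, probe set rule or background level.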

Additional observations from a re-analysis of the deposited data

How the results depend on the processing

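Of the 13 probe sets other than Mlana, 0 passed an adjusted p under 0.05 in every setting that was run, with the adjusted p of Mitf 1422025_at between 0.0656 with a floor of 32 and 0.287 without young mouse 3. At the thresholds of the methods the count of 1 became 0 with a floor of 64 and among probe sets brighter than the median, a class that holds only Mitf 1455214_at of the 13, and it was 0 to 1 when single mice were left out. It was 0 without old mouse 1 or young mouse 3, where Mitf 1422025_at was at -0.93 and -0.999. Mlana was at 1.71 to 2.24 without single mice and at 1.31 with a floor of 64, which compresses the young values. The count above background in old mice went from 1 to 2 with the 90th percentile of the silent genes, to 4 with olfactory receptors and to 2 without the 3 brightest silent probe sets, a setting chosen after seeing the data. In young mice the latter pair gave 3 and 3. Of 203 values of single probe sets under the alternatives, 15 changed sign, all of them differences that did not pass. Without single mice, Tyrp1 1415861_at ran from -0.76 to 0.35, Tyrp1 1439409_x_at from -0.27 to 0.18, Tyr 1456095_at from -0.60 to 0.21, Tyr 1448821_at from -0.047 to 0.26 and Mitf 1455214_at from -0.045 to 0.027. Tyr 1448821_at was at -0.059 with a floor of 64. A block for mouse numbers (1 to 4, 5 to 8) changed no call. Median SDs of log2 signal were 0.49 in dim and 0.16 in bright probe sets, and 13 of the 14 probe sets were dim.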
